A study of Mus musculus with 4 samples.

Results

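The mitochondrial ribosomal protein genes, named Mrpl for the large and Mrps for the small subunit, were followed in gonadal white adipose tissue (gWAT) of mice that lack DNA methyltransferase 1 in adipocytes. Members were all genes of the deposited table whose symbol starts with Mrpl or Mrps followed by a digit. This rule uses no expression value, but it was set with earlier results of these data known. There were 78 such genes among 17335, and all 78 were measured at 0.1 FPKM or more in at least 1 library, the level required of the 15839 genes compared here. FPKM, the fragments of a gene scaled to the length of its transcript and to the depth of the library, corrects for transcript length, so that levels can also be set side by side between genes.

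RNA-seq was carried out on gWAT of female mice that had been fed a high-fat diet (HFD) for 18 weeks. The control group carried the Dnmt1-floxed alleles, with loxP sites around exons of Dnmt1, and is called fl/fl. The knockout group, AD1KO, carried the same floxed alleles and adiponectin-Cre, which is active mainly in mature adipocytes, so that the other cells of the fat pad kept Dnmt1. Age was not given in the sources used here. Each group was sequenced as 1 library made from a pool of 4 animals that contributed the same amount of RNA, so there is no measure of the spread between animals, no test of genotype was possible, and every difference below is one between 2 libraries. Reads were estimated from the steps of the FPKM values and came to a depth of 17630000 in fl/fl and 17450000 in AD1KO. Intervals in parentheses are exact 95% intervals of the ratio of these reads and cover counting error only.

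The deleted gene was examined first. Dnmt1 was at 6.99 FPKM in fl/fl and 3.33 FPKM in AD1KO, from about 639 and 301 reads, a log2 ratio of AD1KO over fl/fl of -1.07 (-1.27 to -0.87). The value covers the whole gene and all cells of the pad, not the deleted exons alone. Adipocyte markers were abundant in both libraries, with a summed level of 18996 FPKM in fl/fl and 28213 FPKM in AD1KO. The libraries also differed in the makeup of their transcripts. All 10 adipocyte markers had a counting interval above 0 (median log2 ratio 0.54), whereas 9 of 10 macrophage markers (median -0.89, summed level 3752 FPKM in fl/fl and 1862 FPKM in AD1KO) and 7 of 7 T and NK cell markers (median -1.80) had one below 0. Of 5 endothelial markers 4 had an interval above 0. Brown and beige adipocytes are rich in mitochondria. Of their 7 markers 2 were past a log2 ratio of 0.5 below and 2 above. The lower ones were Ucp1, at 8.39 FPKM in fl/fl and 1.38 FPKM in AD1KO, and Cidea, at 5.88 and 3.38 FPKM. The higher ones were Dio2, at 0.23 and 0.42 FPKM, and Elovl3, at 0.45 and 1.23 FPKM. Cox8b, the most abundant of the 7, was at 79.54 and 107.46 FPKM (0.43, 0.23 to 0.63). Among 6 markers of reproductive tract epithelium, which lies next to this pad, Ovgp1 was at 3.51 FPKM in fl/fl and 0.17 FPKM in AD1KO, Wfdc2 at 3.64 and 0.39 FPKM, and Pax8 at 0.25 FPKM and listed at 0, while Krt8 (5.32 and 6.42 FPKM) and Krt18 (5.72 and 5.91 FPKM) made up most of their summed level of 19.2 and 13.5 FPKM. Of the adipocyte and macrophage markers none was listed at 0 in either library. In bulk tissue, fewer cells of a type and less RNA per cell cannot be told apart, and the part of this makeup in the values of the ribosomal genes was not tested.

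Mitochondria hold their own genome, which encodes a small set of respiratory chain subunits, and their own ribosome, which translates it. The RNA of this ribosome is made inside the organelle, but its proteins are encoded by nuclear genes, made in the cytosol and imported. Some of them descend from the ribosome of the bacterial ancestor, and others were added in the course of eukaryotic evolution. In fat cells, mitochondria supply acetyl groups and ATP for lipid synthesis and oxidize fatty acids, and mitochondrial translation is needed to assemble the respiratory chain.

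By known position, 51 members belong to the large subunit, 26 to the small subunit, and Mrps36, although named as a ribosomal protein, has also been described as a component of the 2-oxoglutarate dehydrogenase complex. Of the large subunit members, 30 have a bacterial homologue and 21 are specific to mitochondria. The latter include Mrps30 and Mrps18a, which sit in the large subunit in spite of their names. Of the small subunit members, 16 have a bacterial homologue and 10 are specific to mitochondria. In the annotation of the deposited table, 77 of the 78 were assigned to the mitochondrion and 77 to a ribosome, and Mrpl46 carried no annotation. The members lie on 17 chromosomes, at most 11 of them on 1 chromosome (chromosome 11), so they do not form a cluster in the genome.

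The promoters of these genes are described before their levels, since letters in them recur. Promoter windows of 300 bases, from 250 before to 50 after the transcription start, were found for 69 members (75 windows, RefSeq, GRCm38.p6). The other 9 were Mrpl13, Mrpl15, Mrpl19, Mrpl38, Mrpl4, Mrpl54, Mrps28, Mrps34 and Mrps35. The windows were searched on both strands for the core letters of factors known for nuclear genes of mitochondrial proteins. Letters of an ETS factor site (CCGGAAG), the family of the GA-binding protein, were in 26 of 75 windows, or 34.7%, against 15.1% of 14838 windows of all tested genes and 8.86% of 32851 windows of all genes. Of the members with them 4 are shown, Mrpl3 and Mrpl52 with lower and Mrps22 with higher values in AD1KO than in fl/fl, and Mrps16 as a small subunit gene with a value close to equal, with the match in capitals, as CCGGAAG or, on the other strand, CTTCCGG.
Mrpl3: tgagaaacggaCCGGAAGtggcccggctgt
Mrps22: aacctctcgagCCGGAAGttgctctatcga
Mrpl52: caagatgtcggCTTCCGGttttcccggcag
Mrps16: ttgggggcgctCTTCCGGgcttcaggctct
In the order of these lines, the stretches lie at chr9:105053238-105053267 (plus strand), chr9:98601672-98601701 (minus strand), chr14:54426851-54426880 (plus strand) and chr14:20393546-20393575 (minus strand). The match began 19, 11, 47 and 74 bases before the start of the gene. The same letters thus stood before members whose values differed in opposite directions.

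A palindrome-like site of nuclear respiratory factor 1 (NRF1), searched as GCGC, then A and any base, then GCGC, was in 13 windows of the members, or 17.3%, against 8.52% of windows of tested genes and 4.60% of all. It is shown for Mrpl12, which has been described to bind the mitochondrial RNA polymerase, for Mrps21 and Mrpl30, which are among the most abundant members, and for Mrpl44, with the match in capitals. In Mrpl12, Mrps21 and Mrpl30 it is on the other strand, so that the letters shown read GCGC, any base, T, GCGC.
Mrpl12: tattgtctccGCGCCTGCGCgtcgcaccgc
Mrps21: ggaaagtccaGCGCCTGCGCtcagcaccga
Mrpl30: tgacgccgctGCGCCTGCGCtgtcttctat
Mrpl44: agaagcacttGCGCACGCGCagtacactag
These stretches lie at chr11:120484546-120484575 (plus strand), chr3:95871586-95871615 (minus strand), chr1:37890384-37890413 (plus strand) and chr1:79775973-79776002 (plus strand), with the match 81, 91, 83 and 35 bases before the start.

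A YY1 site, searched as AAGATGGCG, was in 8 windows, or 10.7%, against 2.50% and 1.40%. It is shown for Mrps11 and Mrpl36, in which it lies before the start and on the other strand, as CGCCATCTT, and for Mrpl42, one of the most abundant members.
Mrps11: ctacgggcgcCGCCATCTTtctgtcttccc
Mrpl36: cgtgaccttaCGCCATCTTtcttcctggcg
Mrpl42: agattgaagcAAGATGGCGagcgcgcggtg
The first lie at chr7:78783013-78783042 and chr13:73330968-73330997, both on the plus strand, 108 and 31 bases before the start. The last, chr10:95501903-95501932 on the minus strand, stands for the other 6 members with a match, in which the letters lay just after the start and read in the direction of transcription. An ETS and a YY1 match overlapped in 0 windows. At least 1 of the 3 motifs was in 41 windows, or 54.7%, against 23.5% of windows of tested genes.

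**Figure D1:**
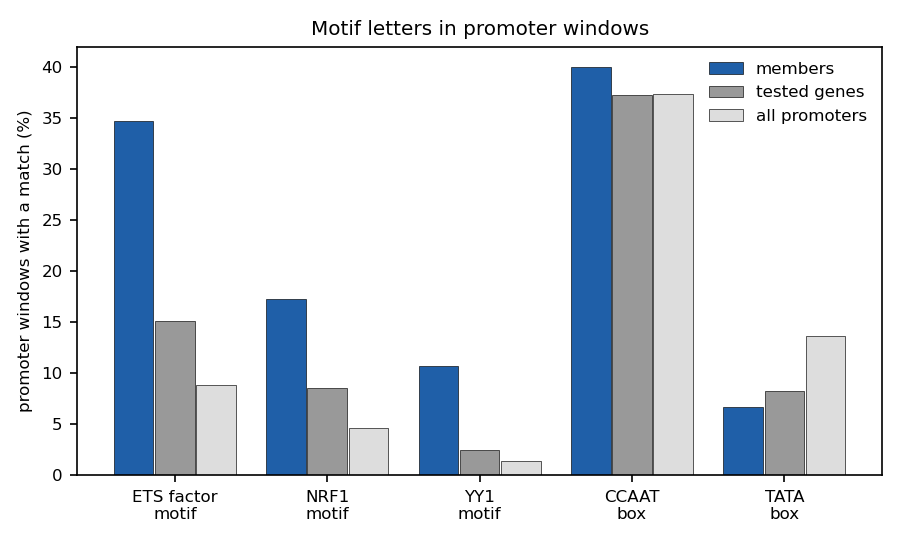
Share of promoter windows of 300 bases that hold each motif (vertical axis, percent) for the members (75 windows), all tested genes (14838) and all genes (32851). The ETS, NRF1 and YY1 bars of the members stand above those of both other sets, from 10.7% to 34.7%, whereas the CCAAT bars of all 3 sets lie close together and the TATA bar of the members is the lowest of its set.

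General promoter letters differed less. CCAAT was in 40.0% of the members' windows and 37.3% of those of tested genes, and TATAAA was in 6.67% and 8.22%. The median window of the members held 21 CpG dinucleotides, the sites that Dnmt1 methylates, against 18 in tested genes and 7 in all genes. Members with a motif had much the same values as those without it. The median log2 ratio was 0.04 for the 26 members with ETS letters and 0.06 for the 43 without, 0.07 and 0.04 for NRF1, and 0.09 and 0.05 for YY1. A match of letters is a description and not a bound site, and methylation of these windows was not measured in these libraries.

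The levels of the members covered a wide range in both libraries. In fl/fl they ran from 0.99 to 198.86 FPKM with a median of 33.3, and in AD1KO from 1.12 to 218.69 FPKM with a median of 34.9. Of the 78, 7 had a mean level over 100 FPKM and 7 one of 10 FPKM or less. The order of the members was nearly the same in both libraries. Across the 78 genes, which are not independent and share both libraries, the Spearman correlation of the levels was 0.989 (Pearson 0.992 on the log2 scale).

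**Figure D2:**
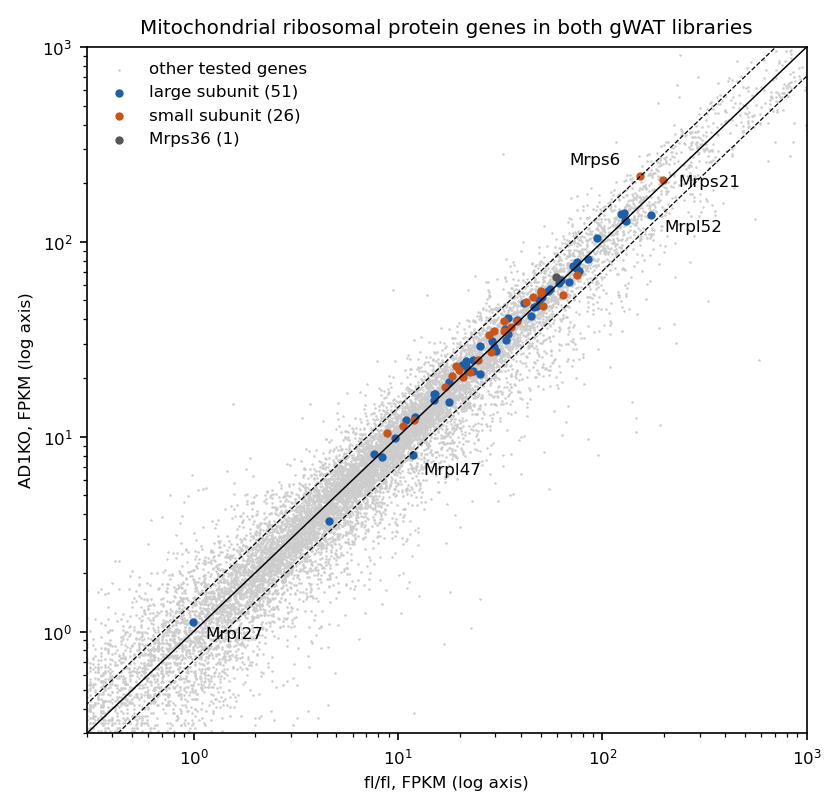
Level of each gene in fl/fl (horizontal axis) and AD1KO (vertical axis), both in FPKM on log axes, with large subunit members in blue, small subunit members in orange, Mrps36 in dark grey and other tested genes in light grey. The solid line marks equal levels and the dashed lines a log2 ratio of 0.5 in either direction. Of the 78 members, Mrps6 lies past the upper dashed line and Mrpl47 past the lower one.

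Most members were at close to the same level in both libraries. The log2 ratio was within 0.25 either way for 70 of 78 members, or 89.7%, against 41.9% of all tested genes. Because most members are well expressed, genes of similar level are the closer comparison. Where a gene reached 5 FPKM in either library, 69 of 76 members (90.8%) and 50.1% of all 8599 genes were within 0.25. At the threshold of the study's methods, a log2 ratio of 0.5, 1 member was higher in AD1KO (Mrps6) and 1 was lower (Mrpl47), or 2.56% in either direction, whereas 14.3% of tested genes were higher and 19.1% lower, 33.4% in all. At 5 FPKM or more these shares were 8.20%, 14.4% and 22.6%. No member had its whole counting interval past 0.5 in either direction, against 4.19% of tested genes above and 8.30% below (4.57% and 10.2% at 5 FPKM or more).

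The members as a list lay slightly above 0. Their median log2 ratio was 0.05, with the middle of the list between -0.03 and 0.14, while the median of all tested genes was -0.04 and their middle reached from -0.36 to 0.27. Summed over the members, reads gave a log2 ratio of 0.07 (0.05 to 0.08), and the summed level was 3526 FPKM in fl/fl and 3650 FPKM in AD1KO. Each of 3 other scalings of the libraries shifts all genes upward alike, by 0.04 to 0.09. They put the members' median at 0.09 to 0.14 and that of all tested genes at -0.01 to 0.05. A ratio above 0 was found for 52 members (66.7%), against 45.3% of tested genes and 44.2% of those at 5 FPKM or more. The counting interval lay above 0 for 17 members (21.8%), against 21.5% of tested genes, and below 0 for 6 (7.69%), against 29.0%. This depends on the scaling, since with the upper quartile 31 members (39.7%) and 27.8% of tested genes had an interval above 0, and 4 (5.13%) and 22.8% one below. In the deposited values at 5 FPKM or more, where intervals are narrower, 22.4% of members and 28.0% of all genes had an interval above 0. Below 0 these shares were 6.58% and 37.8%.

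The spread of the members around their median was small. The SD of the log2 ratio over the 78 genes was 0.161, against 0.612 over all genes at 5 FPKM or more. Counting error alone amounted to 0.106 over the members, and to 0.0852 without Mrpl27, which had 26 reads in both libraries together. The median member had 1278.5 reads over both libraries. Neither transcript length (Spearman 0.18 across the 78 genes) nor mean level (-0.07) went closely with the ratio.

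**Figure D3:**
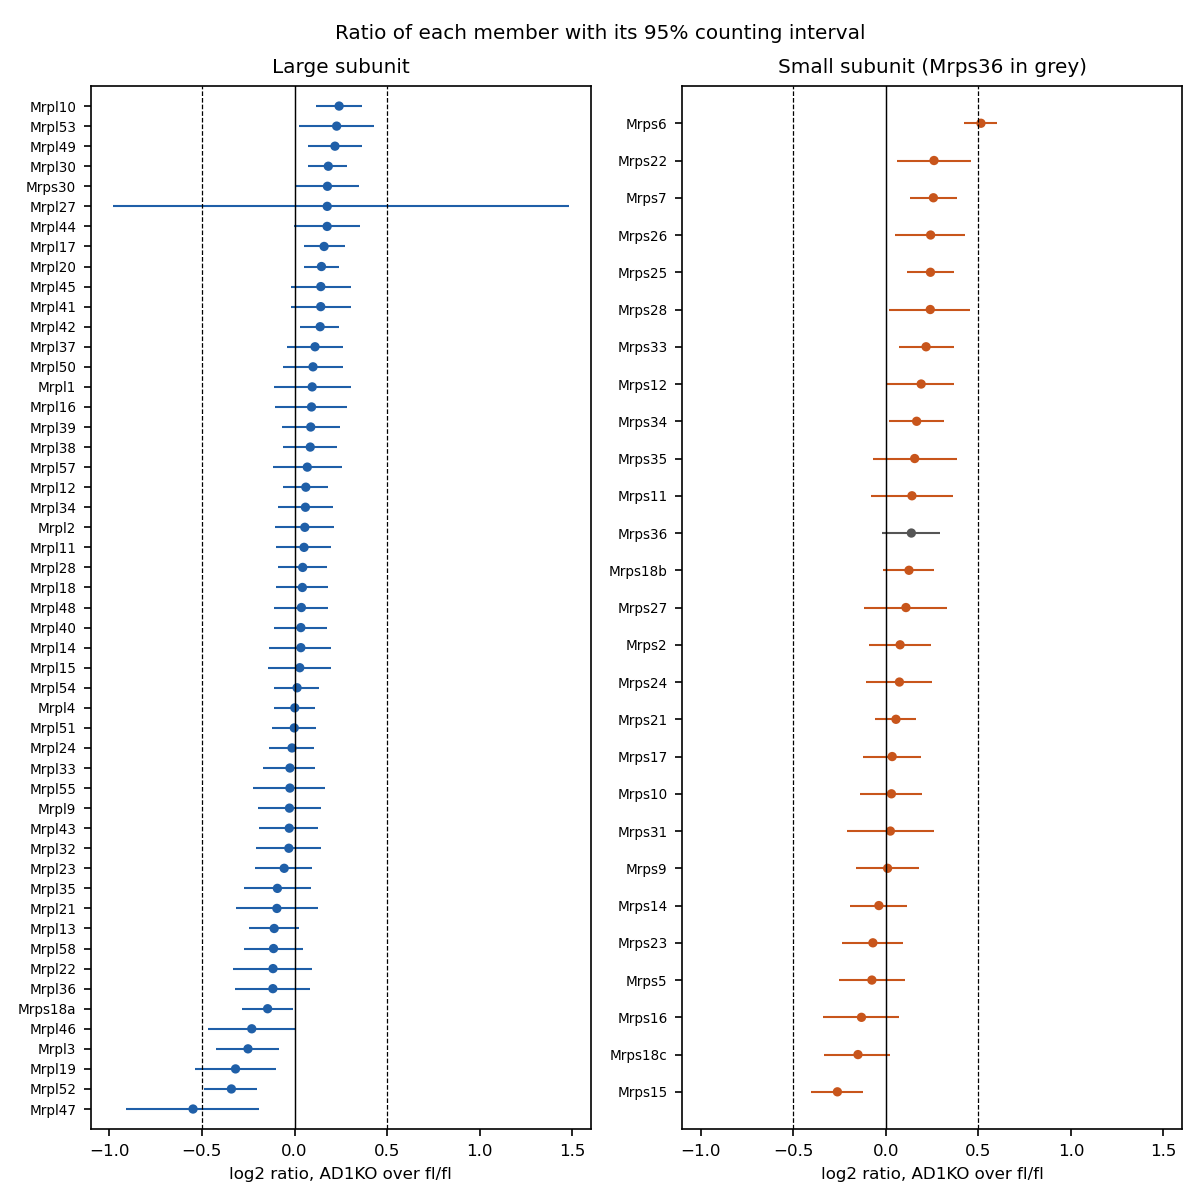
Log2 ratio of AD1KO over fl/fl for each member (points) with its exact 95% counting interval (bars), for the large subunit on the left and the small subunit with Mrps36 on the right, ordered by the ratio. Dashed lines mark 0.5 in either direction. Most points lie within 0.25 of the line at 0, with Mrps6 at 0.51, Mrpl47 at -0.55 and a wide interval for Mrpl27.

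In the deposited values, large subunit members centred close to 0. The median level was 33.95 FPKM in fl/fl and 33.76 FPKM in AD1KO, and the median log2 ratio was 0.04. Of 51 counting intervals 5 (9.80%) were below and 8 (15.7%) above 0, against 29.0% and 21.5% of all tested genes. With upper quartile scaling the median was 0.13. It put 3 intervals (5.88%) below and 16 (31.4%) above 0, against 22.8% and 27.8%. The summed reads had a log2 ratio of 0.03 (0.01 to 0.05). The 30 members with a bacterial homologue had a median of 0.01 and the 21 specific to mitochondria one of 0.08.

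Among large subunit genes with bacterial homologues, the lowest was Mrpl47, a relative of a protein at the exit of the peptide tunnel. Mrpl47 (mm9 chr3:32624319-32636069, minus strand) had 11.85 FPKM in fl/fl and 8.10 FPKM in AD1KO, from 164 and 111 reads, a log2 ratio of -0.55 (-0.91 to -0.19). The interval is wide and includes differences well short of the threshold, and with upper quartile scaling (-0.46) or a pseudocount of 1 FPKM (-0.50) Mrpl47 did not pass it. Mrpl47 shares 447 of its 3420 annotated exon bases with Actl6a (16.27 FPKM in fl/fl, 13.42 FPKM in AD1KO) and 158 with Ndufb5 (102.08 and 108.28 FPKM), both on the opposite strand, and whether reads were counted by strand was not given in the sources used here. The part of these neighbours in the value of Mrpl47 was not tested.

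Several proteins of the catalytic core and the factor-binding stalk belong to the same group. Mrpl3 (mm9 chr9:104955569-104979796, plus strand), a core protein of the large subunit, was at 25.11 FPKM in fl/fl and 21.09 FPKM in AD1KO (log2 ratio -0.25, -0.42 to -0.08). Mrpl4, whose bacterial relative lines the peptide tunnel, was at 61.38 and 61.43 FPKM, equal within counting error (0.00, -0.11 to 0.11). Mrpl11 stands at the base of the stalk where translation factors bind, and was at 14.94 and 15.48 FPKM (0.05, -0.10 to 0.20). Mrpl12 (mm9 chr11:120345927-120350379, plus strand), the stalk protein itself, was at 71.84 and 74.93 FPKM (0.06, -0.06 to 0.18). Thus of these genes Mrpl3 alone had an interval that did not include 0. At the upper end, Mrpl30 was among the most abundant members, at 122.97 FPKM in fl/fl and 139.52 FPKM in AD1KO (0.18, 0.07 to 0.29). Mrpl10, which anchors the stalk, was at 34.54 and 40.81 FPKM (0.24, 0.12 to 0.36), and is named here after its value was seen, as is Mrpl19 at 4.58 and 3.67 FPKM (-0.32, -0.54 to -0.10). Mrpl27 was the member with the lowest level, at 0.99 and 1.12 FPKM from 12 and 14 reads. Its transcript has another match in the genome that is 97.9% identical over 100% of its length, so its reads may be divided between places.

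Of the proteins that only mitochondrial ribosomes have, Mrpl52 stood lowest. Mrpl52 (mm9 chr14:55045746-55048587, plus strand) was the most abundant large subunit gene in fl/fl, at 173.87 FPKM, and was at 137.25 FPKM in AD1KO, from 910 and 709 reads (log2 ratio -0.34, -0.49 to -0.20). It is the lower member nearest to the threshold without reaching it. Mrpl46 was at 17.75 FPKM in fl/fl and 15.12 FPKM in AD1KO (-0.23, -0.47 to 0.00), and shares 173 exon bases with Mrps11 on the opposite strand, which was at 19.88 and 21.93 FPKM. The other genes named for their roles lay on both sides of 0. Mrpl58, also called Ict1, is a peptidyl-tRNA hydrolase built into the ribosome that releases stalled chains, and was at 44.77 and 41.38 FPKM (-0.11, -0.28 to 0.05). Mrpl41 was at 14.95 and 16.49 FPKM (0.14, -0.02 to 0.30), and Mrpl44, which has the fold of a ribonuclease III, was at 21.59 and 24.39 FPKM (0.18, -0.00 to 0.35). Mrpl42 had 127.06 and 139.84 FPKM (0.14, 0.03 to 0.24) and Mrps30 20.61 and 23.31 FPKM (0.18, 0.01 to 0.35). These last 2 genes had intervals above 0, though by small amounts.

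The median of the small subunit was above that of the large one over all members, but not without the members that share exons with another coding gene (0.0449 for the small and 0.0533 for the large subunit). The median level of small subunit members was 31.2 FPKM in fl/fl and 34.9 FPKM in AD1KO, and their median log2 ratio was 0.09. Of 26 counting intervals 9 (34.6%) were above and 1 (3.85%) below 0, against 21.5% and 29.0% of all tested genes. Every small subunit member was over 5 FPKM, where these shares of all genes were 28.0% and 37.8%. The summed reads had a log2 ratio of 0.13 (0.10 to 0.16), of which Mrps6 alone made up a good part. Without Mrps6 the ratio was 0.08 (0.04 to 0.11). The 16 members with a bacterial homologue had a median of 0.04 and the 10 specific to mitochondria one of 0.16. With 1 library a group, the difference between the subunits has no replicate check.

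Mrps6 had the highest ratio of all members. Mrps6 (mm9 chr16:92058515-92112472, plus strand), a relative of bacterial protein S6, was at 153.12 FPKM in fl/fl and 218.69 FPKM in AD1KO, from 1836 and 2591 reads, 42.8% higher in AD1KO (log2 ratio 0.51, 0.42 to 0.60). It was second in level among members in the order of means. Its locus also holds Slc5a3, the gene of a myo-inositol transporter, which shares 696 of the 1590 exon bases of Mrps6 on the same strand. Slc5a3 was at 4.96 FPKM in fl/fl and 8.83 FPKM in AD1KO, from 945 and 1664 reads (0.83, 0.72 to 0.95). Reads in the shared bases cannot be assigned to one gene from the deposited table, and their part in the value of Mrps6 was not tested.

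The next members were far below Mrps6 and lay together. Mrps22 (mm9 chr9:98489152-98502098, minus strand), in which human mutations impair the respiratory chain, was at 19.33 FPKM in fl/fl and 23.16 FPKM in AD1KO (log2 ratio 0.26, 0.06 to 0.46). It is the higher member nearest to the threshold without reaching it. Mrps7 (mm9 chr11:115465239-115469350, plus strand), a head protein close to the path of the tRNAs, was at 32.92 and 39.35 FPKM (0.26, 0.13 to 0.38). Mrps26 (mm9 chr2:130389478-130394431, plus strand) was at 27.98 and 33.10 FPKM (0.24, 0.05 to 0.43). Mrps25 (mm9 chr6:92119519-92134027, minus strand) was at 8.88 and 10.50 FPKM (0.24, 0.11 to 0.37). The values of these 4 genes did not differ from each other beyond their intervals. Mrps22, Mrps25 and Mrps26 are specific to mitochondria, and Mrps7 has a bacterial homologue.

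Other small subunit genes of known role spanned both sides of 0. Mrps12 (mm9 chr7:29524660-29526839, minus strand), the counterpart of the bacterial protein that governs decoding accuracy, was at 45.62 FPKM in fl/fl and 52.09 FPKM in AD1KO (log2 ratio 0.19, 0.01 to 0.37). Mrps34 was at 49.92 and 56.04 FPKM (0.17, 0.02 to 0.32), and Mrps18b, one of several mitochondrial variants of bacterial protein S18, was at 50.30 and 54.87 FPKM (0.13, -0.01 to 0.26). In spite of this kinship, Mrps18b and also Mrps18a of the large subunit were counted above as specific to mitochondria. Mrps2 was at 17.02 and 17.96 FPKM (0.08, -0.09 to 0.24). Mrps21 (mm9 chr3:95666557-95675442, minus strand), the most abundant member, was at 198.86 and 206.62 FPKM (0.06, -0.06 to 0.16). Mrps16, mutated in a human disorder of the respiratory chain, was at 51.54 and 47.06 FPKM (-0.13, -0.34 to 0.07). Only Mrps15 (mm9 chr4:125724169-125732776, plus strand), which binds the ribosomal RNA early in assembly, had an interval below 0 in this subunit, at 64.07 FPKM in fl/fl and 53.46 FPKM in AD1KO (-0.26, -0.40 to -0.13). Mrps36 was at 59.62 and 65.62 FPKM (0.14, -0.02 to 0.29). The members not named ranged in log2 ratio between the values given for Mrpl19 and Mrpl10.

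Shared exons and near-identical copies touch many of these genes. Exon bases were shared with another coding gene by 21 members, on the same strand for 6 and on the opposite strand for 17, and 14 members had another match in mm9 of at least 95% identity over at least 50% of the transcript. For the 46 members with neither, the median log2 ratio was again 0.05. Another match was found for Mrpl30, Mrpl42 and Mrps21, which are among the most abundant members, and for Mrps16, Mrps18b and Mrps36. Mrps34 shares 763 of its 2064 exon bases with Nme3 on the same strand and 1309 with Mapk8ip3 on the opposite strand. Mrps25 shares 3533 of 6576 with Nr2c2 on the opposite strand. The part of these matches and shared bases in the values was not tested.

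Members often start beside another gene. A coding gene on the other strand started within 1000 bases of the start of 22 members, or 28.2%, in the mm9 annotation, against 10.8% of 13543 tested genes. Such an arrangement is known as a divergent promoter. Of these partner genes 20 were tested. Their median log2 ratio was -0.11 (SD 0.334 over the 20), while the median of the 20 members beside them was 0.12. Member and partner had the same sign in 7 of 20 pairs. The same count was not taken for other pairs of genes, so the 7 has no share to be read against. Past the threshold were 3 lower partners of the 20, Gga3 (beside Mrps7, log2 ratio -0.60), Wdfy1 (beside Mrpl44, -0.51) and Ncapd2 (beside Mrpl51, -0.50). The 1 higher partner, Lrrc46 (beside Mrpl10, 0.95), rests on 3 and 6 reads. Of all tested genes 19.1% were lower and 14.3% higher.

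Among the partners, Sars2 and Fau serve translation themselves, whereas Psma2 serves the breakdown of proteins. Sars2, the mitochondrial seryl-tRNA synthetase, starts 171 bases from Mrps12 and was at 6.29 FPKM in fl/fl and 6.01 FPKM in AD1KO. Fau, which encodes a cytosolic ribosomal protein, starts 135 bases from Mrpl49 and was at 118.09 and 113.85 FPKM, while Mrpl49 was at 25.10 and 29.20 FPKM. Psma2, a proteasome subunit, starts 217 bases from Mrpl32 and was at 147.16 and 131.10 FPKM, while Mrpl32 was at 48.10 and 47.08 FPKM. In these pairs the member and its partner were at clearly different levels.

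**Figure D4:**
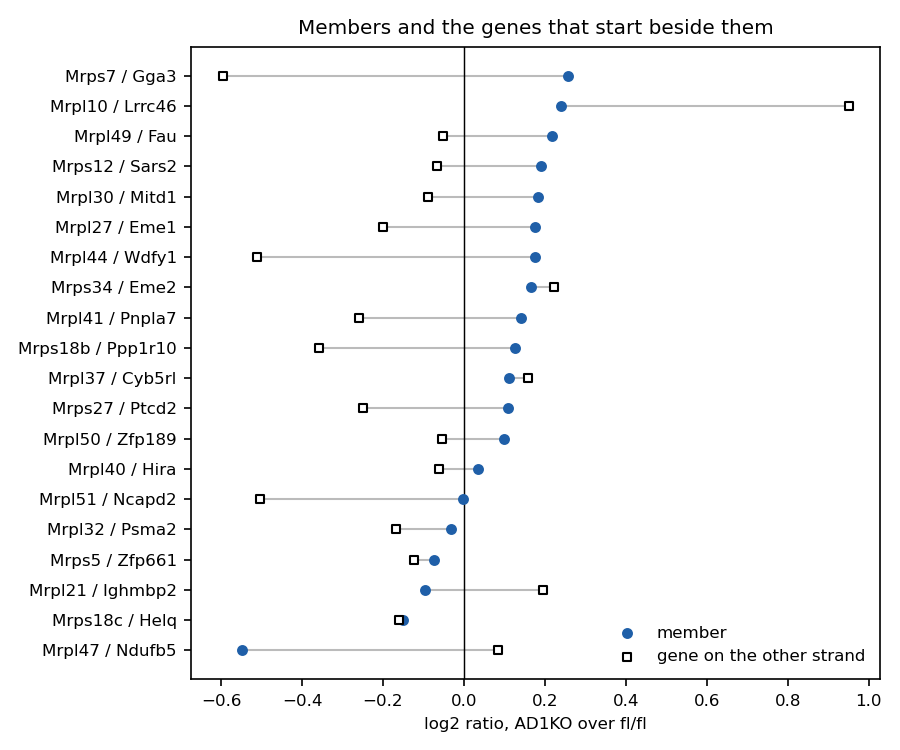
Log2 ratio of AD1KO over fl/fl (horizontal axis) for 20 members (filled circles) and for the gene that starts within 1000 bases on the other strand (open squares), 1 pair a row, ordered by the member. Partners spread more widely than members, and in 7 of the 20 pairs both lie on the same side of 0.

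Ribosomal proteins with other names gave a mixed picture. Of 7 such genes looked for, 5 were in the table. Dap3, a GTP-binding protein of the small subunit, was at 11.12 FPKM in fl/fl and 13.09 FPKM in AD1KO (log2 ratio 0.24, 0.10 to 0.37), and Ptcd3, an RNA-binding protein near the entry of the mRNA, was at 11.99 and 14.23 FPKM (0.25, 0.08 to 0.42). Chchd1, also of the small subunit, was lower, at 61.41 and 51.41 FPKM (-0.26, -0.44 to -0.08). Aurkaip1 had 82.21 and 81.80 FPKM (-0.01) and Gadd45gip1, a large subunit protein at the tunnel exit, 19.32 and 19.13 FPKM (-0.01), both above 0 with each of the 3 other scalings.

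Few of the genes that build and serve the mitochondrial ribosome passed the threshold, which 33.4% of all tested genes did. Within 0.25 were 20 of 25 assembly and rRNA modification factors, 11 of 15 translation factors and 13 of 17 mitochondrial tRNA synthetases. Of the members 70 of 78, and of all tested genes 41.9%, were within 0.25. Of 25 assembly and rRNA modification factors 0 passed the threshold, and the median log2 ratio was 0.06, with 5 intervals below and 2 above 0. Among those at 5 FPKM or more, Rpusd4, a pseudouridine synthase, was lowest at 9.54 FPKM in fl/fl and 6.90 FPKM in AD1KO (-0.47), and Mtg1, a GTPase of large subunit assembly, was highest at 11.15 and 14.01 FPKM (0.33). The 15 translation factors had a median of 0.03 and 0 past the threshold, and at 5 FPKM or more ran from Slirp, which stabilizes mitochondrial mRNAs, at 101.37 and 92.68 FPKM (-0.13) to Tsfm, an elongation factor, at 12.27 and 16.31 FPKM (0.41, 0.16 to 0.67). The 17 mitochondrial tRNA synthetases had the highest median of these lists, 0.22. Of their intervals 4 (23.5%) were above and 0 below 0, against 21.5% and 29.0% of all tested genes. Of the synthetases only Nars2 passed the threshold, at 1.31 and 1.95 FPKM (0.57). The median of 0.22 did not describe the synthetases at 5 FPKM or more, which lay on both sides of 0. Of these, Tars2 was lowest (10.88 and 9.72 FPKM, -0.16), and Sars2 (-0.07), Cars2 (-0.03), Fars2 (-0.02) and Yars2 (-0.002) were also below 0. Above 0 were Rars2 (0.22), Lars2 (0.23) and Iars2, the highest (15.80 and 18.67 FPKM, 0.24).

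Genes of transcription and replication of mitochondrial DNA had a median of 0.03 over 19. Past the threshold 2 of these (10.5%) were lower, against 19.1% of all tested genes. Mterf1a was at 2.99 FPKM in fl/fl and 1.33 FPKM in AD1KO (-1.16). Its close copy Mterf1b was at 1.19 and 0.81 FPKM, from 26 and 18 reads (-0.55, -1.47 to 0.41). The shared sequence of Mterf1a and Mterf1b leaves the division of reads between them uncertain. Ssbp1, which coats single-stranded mitochondrial DNA, was at 23.69 and 19.37 FPKM (-0.29), and Hsd17b10, a subunit of the mitochondrial RNase P, was at 71.63 and 87.43 FPKM (0.29). The table held 0 genes encoded by mitochondrial DNA, so the products of this ribosome could not be examined. Of 20 genes of general mitochondrial content 0 passed the threshold (median 0.02), with Vdac2, a pore of the outer membrane, at 152.10 and 115.32 FPKM (-0.40) and Immt, which shapes the cristae, at 61.25 and 76.86 FPKM (0.33).

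The 9 regulators known to act on such genes had a median log2 ratio of -0.20, with 7 of 9 below 0. Of their intervals 2 (22.2%) were below and 0 above 0, against 29.0% and 21.5% of all tested genes. With upper quartile scaling their median was -0.11, with 1 interval below and 1 above 0. Nrf1 was at 3.81 FPKM in fl/fl and 3.69 FPKM in AD1KO (-0.05), Gabpa, an ETS factor, at 5.63 and 6.20 FPKM (0.14), and Yy1 at 16.33 and 16.71 FPKM (0.03). Esrra was at 20.34 and 17.71 FPKM (-0.20), and the coactivator Ppargc1a was near the lower limit, at 0.22 and 0.19 FPKM. The coactivators Ppargc1b (1.23 and 0.90 FPKM, -0.45) and Pprc1 (4.46 and 3.88 FPKM, -0.20) and Gabpb1, the partner of Gabpa (6.86 and 5.87 FPKM, -0.22), had intervals that included 0. Of the 9, Myc alone passed the threshold, at 10.26 and 6.22 FPKM (-0.72). As given above, 9 of 10 macrophage markers were lower in the same library, and their part in the value of Myc was not tested.

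Beside the ribosome of the cytosol, the members differed in level and in direction. The 84 cytosolic ribosomal protein genes had a median log2 ratio of -0.37, with the middle of the list between -0.43 and -0.28, and 77 of them had an interval below 0 and 0 one above, a direction that stayed under each of 3 other scalings (median -0.33 to -0.28). The threshold was passed by 9 of the 84 (10.7%), all lower, against 1 lower and 1 higher of the 78 members and 19.1% of all tested genes lower. With the other scalings 3 (trimmed mean of M-values), 1 (upper quartile) and 4 (median of ratios) of the 84 passed it. At 5 FPKM or more the cytosolic genes ran from Rpl27 at 18.69 and 12.70 FPKM (-0.56) to Rpl22l1 at 83.37 and 84.13 FPKM (0.01). Also compared were the 83 nuclear genes of the respiratory chain, most of whose products assemble with those translated by the mitochondrial ribosome. These genes had a median of 0.09, with the middle between 0.02 and 0.20. Of their intervals 36 (43.4%) were above and 11 (13.3%) below 0, against 21.5% and 29.0% of all tested genes. Among all genes at 5 FPKM or more these shares were 28.0% and 37.8%. Of these 83 genes 2 (2.41%) were lower, Ndufs5 at 29.96 and 5.80 FPKM (-2.37) and Atp5g2 (-0.55). Higher was 1, Cox7b2, which was listed at 0 in fl/fl and rests on 1 read in AD1KO. The highest at 5 FPKM or more was Cox6b2 at 5.11 and 6.97 FPKM (0.45). The difference between these lists was not tested, since 1 library a group gives no replicate error and genes of a list are not replicates.

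**Figure D5:**
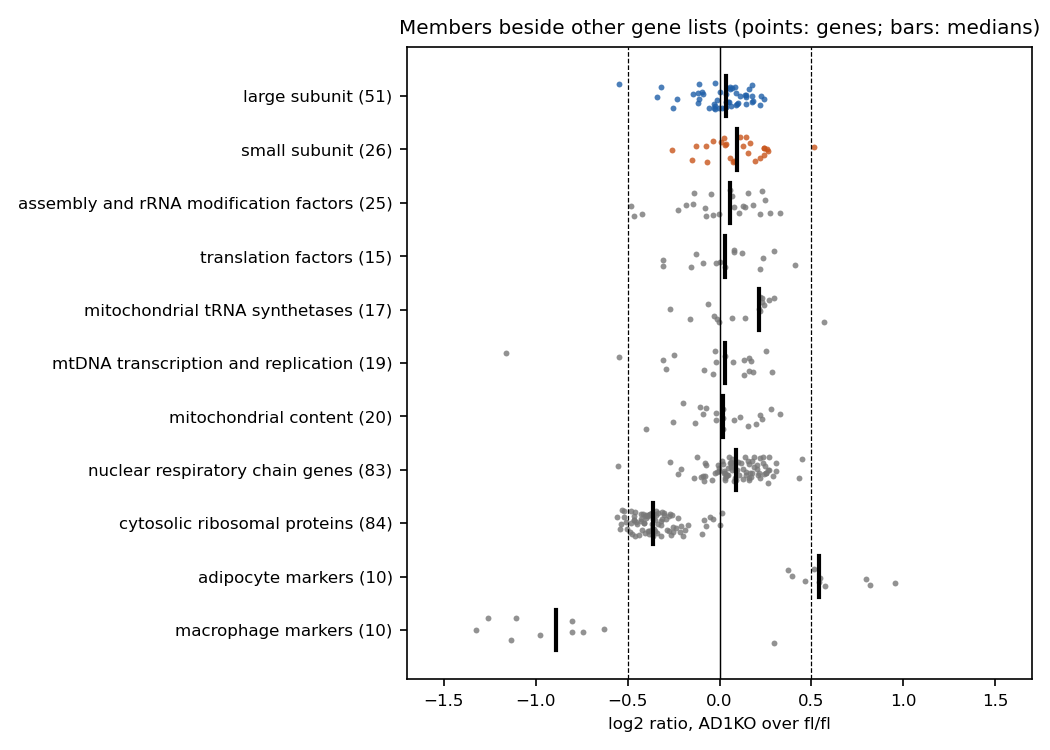
Log2 ratio of AD1KO over fl/fl (horizontal axis) for the genes of each list (points, number of genes in parentheses), with the median as a bar and dashed lines at 0.5 in either direction. Members of both subunits lie around 0 together with most other mitochondrial lists. The median of the mitochondrial tRNA synthetases lies at 0.22, with points on both sides of 0. Cytosolic ribosomal proteins lie around -0.37, adipocyte markers around 0.54 and macrophage markers around -0.89. The plot leaves out 3 genes with a ratio beyond 1.6 in size.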

How the data were processed

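The members and gene lists were chosen with earlier results of these data known. Expression was measured by RNA-seq of poly(A)-selected RNA on the BGISEQ-500 in 1 pooled library per group. Clean reads were aligned to mm9 for the authors, who deposited 1 FPKM value per gene and library and wrote 0 as 0.01. The aligner, the program behind the FPKM and the strand setting are not given in the sources used here. The deposited log2 fold change, P-value and FDR columns hold the authors' own comparison and were not used. The reduced representation bisulfite sequencing samples were not analysed here.

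Entries of 0.01 were read as 0, and 0.01 FPKM was added to each value before AD1KO was divided by fl/fl and the log2 taken, which understates differences of low genes. A gene was compared if it reached 0.1 FPKM in either library, and a ratio of 0.5 in size counted as past the threshold. No p-value was computed, since each group has 1 library.

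FPKM of short, low genes fall on steps of 1 read. The depth and a length correction (115 and 116 bases) were set so that 639 low genes gave values closest to whole numbers in each library (77.6% and 76.5% within 0.1 of one). Reads then followed from FPKM and transcript length, and 726 genes in fl/fl and 730 in AD1KO were listed at 0. The intervals are those of Clopper and Pearson, exact at 95%, for the split of a gene's reads between the libraries. The steps were tested on simulated data.

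Named were Dnmt1, the 5 members with the lowest and the 5 with the highest ratio among those with at least 5 FPKM in 1 library, the 5 with the highest mean FPKM, those nearest the threshold on each side, 14 members and 6 other names picked for their known roles, and the lowest and highest gene of each other mitochondrial list. Other names were added after their values were seen. Positions, shared exons and neighbouring starts came from GENCODE vM1 (mm9), starts counting as neighbours within 1000 bases apart or with up to 200 bases of overlap. Copies were searched with BLAST 2.17.0 at 95% identity over 50% of the transcript. Promoter windows came from RefSeq (GRCm38.p6). Versions were 3.11.15 of Python, 2.3.3 of pandas, 1.17.1 of SciPy, 2.4.6 of NumPy and 3.10.9 of Matplotlib. Alternatives were 3 scalings of the libraries, other pseudocounts, filters and thresholds, and, chosen after seeing the data, a filter at 5 FPKM and the members without shared exons, without copies or without Mrps6.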

Additional observations from a re-analysis of the deposited data

How the results depend on the processing

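No paired analysis was possible because each genotype was sequenced as a single pool, and neither library could be left out. Over the 13 alternatives the medians of the members and of both subunits and Dnmt1 kept their direction. So did every member named by rule or for its known role. Members named for other reasons were not followed. Among these, Mrpl32 and Mrpl51 lay just below 0 as deposited, by less than the upward shift of each scaling. Aurkaip1 (0.0291 to 0.082) and Gadd45gip1 (0.022 to 0.075), just below 0 as deposited, lay above it with each of the 3 scalings, and the median of all tested genes went from -0.0431 to 0.0461 with upper quartile scaling. With trimmed mean of M-values (TMM) scaling (log2 factor -0.04) the median log2 ratio was 0.0946 for the members, 0.0783 for the large and 0.135 for the small subunit, and that of summed FPKM was 0.0912 (0.0498 as deposited). With upper quartile scaling (-0.09) these were 0.14, 0.13, 0.18 and 0.14, and 0 members were lower (of all tested genes 2609 were lower and 2796 higher). With median of ratios scaling (-0.04) they were 0.0895, 0.0732, 0.13 and 0.0861. Members with an interval above 0 numbered 17 as deposited, 23 with TMM, 31 with upper quartile and 22 with median of ratios scaling, and those below 0 numbered 6, 5, 4 and 5. Of all tested genes 3029 were lower and 2265 higher as deposited. A pseudocount of 1 FPKM gave 1661 and 965 and 0 lower members. A filter at 1 FPKM gave 1281 higher genes, and one at 5 FPKM 1240 lower and 705 higher. At a threshold of 1 there were 1417 lower and 910 higher genes, and with the whole interval past 0.5 1315 and 663, with 0 members in either direction both times. Without members that share exons, 0 members were lower and 0 higher, the small subunit median was 0.0449, below that of the large subunit (0.0533), and the summed FPKM ratio 0.022. Without Mrps6 0 were higher and the summed ratio was 0.0247. Dnmt1 ranged from -1.07 to -0.88. For a single member, differences within its counting interval were not detectable at this depth, and the spread between animals is unknown. Causes of these shifts were not tested beyond the construction of each alternative.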
